A study of Homo sapiens with 18 samples.

Results

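Across 26485 gene symbols counted, 10 keratin genes were followed in 3 human pancreatic cancer cell lines with and without the drug THZ1. The rule took the rows whose symbol is KRT7, KRT8, KRT18 or KRT19, the simple keratins of ductal epithelium, or KRT5, KRT6A, KRT14, KRT15, KRT17 or KRT81, keratins of basal, squamous or hair-forming epithelium. No measured value entered the rule, though the keratins were chosen with earlier results of these data known. All 10 genes passed the filter on low counts. The groups were BxPC3 cells with THZ1, BxPC3 cells with DMSO, Panc327 cells with THZ1, Panc327 cells with DMSO, SUIT2 cells with THZ1 and SUIT2 cells with DMSO, with 3 libraries in each. THZ1 was given at 100 nM and both THZ1 and its solvent DMSO for 6 h. All 3 are established lines grown from pancreatic ductal adenocarcinoma under standard culture, so each stands for 1 tumour, and the sources used here do not say whether the 3 libraries of a group came from separate cultures. The p-values therefore measure the spread between these libraries, which may be technical.

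Keratins are the intermediate filament proteins of epithelial cells. A filament needs a type II (basic to neutral) and a type I (acidic) keratin in equal amounts, and unpaired chains are degraded. KRT8 with KRT18 is the first pair made in simple epithelia, KRT7 and KRT19 are added in ducts, KRT5 with KRT14 marks the basal layer of stratified epithelia, and KRT6A with KRT16 and KRT17 is induced in stressed or wounded epidermis. In pancreatic cancer the ductal keratins are near universal, whereas KRT5, KRT6A, KRT14 and KRT17 belong to the basal-like or squamous expression programme, and KRT81, a hair keratin, has been used as a marker of quasi-mesenchymal tumours. THZ1 is a covalent inhibitor of CDK7, a kinase that acts on RNA polymerase II, and at higher exposure it also hits related transcriptional kinases. The series asks how such lines respond when transcription is inhibited.

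The type II members KRT5, KRT6A, KRT7, KRT8 and KRT81 lie in the keratin cluster of chromosome 12, and the type I members KRT14, KRT15, KRT17 and KRT19 in that of chromosome 17. KRT18 is the exception, a type I gene beside KRT8 on chromosome 12. In GRCh38 coordinates of GENCODE 29, the type II members run in the order KRT7 (chr12:52232520-52252186, plus strand), KRT81 (chr12:52285913-52291534, minus strand), KRT6A (chr12:52487174-52493257, minus strand), KRT5 (chr12:52514575-52520687, minus strand) and KRT8 (chr12:52897187-52949954, minus strand), whose end overlaps KRT18 (chr12:52948871-52952901, plus strand). The type I members on chromosome 17 run in the order KRT15 (chr17:41513743-41522529, minus strand), KRT19 (chr17:41523617-41528308, minus strand), KRT14 (chr17:41582279-41586921, minus strand) and KRT17 (chr17:41619441-41624842, minus strand). The 30 bases that encode the conserved end of the central rod, the stretch that every intermediate filament shares, show how alike these transcripts are and where short reads can tell them apart. They are coding exon sequence, printed on the gene's own strand from GENCODE 29 transcripts, with capitals marking bases that differ from KRT5 in the type II genes:
KRT5: acttaccgcaagctgctggagggcgaggaa
KRT7: acCtaccgcaagctgctggagggcgaggaG
KRT6A: acCtaccgcaagctgctggagggTgaggaG
KRT8: acCtacAgGaagctgctggagggcgaggaG
KRT81: acCtacAgGCGCctgctggagggcgaggaG

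KRT7 differed from KRT5 at 2 of the 30 positions, KRT6A at 3, KRT8 at 4 and KRT81 at 7. In the type I genes the capitals mark bases that differ from KRT14:
KRT14: acctaccgccgcctgctggagggcgaggac
KRT17: acctaccgccgcctgctggagggAgaggaT
KRT15: acTtaccgcAgcctgctCgagggcCaggaT
KRT19: acctaccgcAgcctgctCgagggACaggaA
KRT18: acctaccgccgcctgctggaAgATgGCgaG

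KRT17 differed from KRT14 at 2 positions, KRT15 and KRT19 at 5 each and KRT18 at 6. Over whole transcripts the likeness reaches beyond the rod end. Of the 50-base windows of the KRT8 transcript, 41.3% also occur in a transcript of another gene, mostly among 50 KRT8 pseudogenes. The share was 35.1% for KRT18, with 67 pseudogenes, and 39.1% for KRT6A, of which KRT6C holds 35.2%. It was 44.6% for KRT81, mostly shared with KRT86, then 23.8% for KRT14 and 17.4% for KRT17. It was 3.99% or less for KRT5, KRT7, KRT15 and KRT19. Reads from shared windows cannot be placed with certainty, so the levels of KRT8, KRT18, KRT6A, KRT81, KRT14 and KRT17 are uncertain to that extent. KRT8 and KRT18 also overlap on opposite strands, as do KRT81 and KRT86 and KRT7 and KRT7-AS, and the strand setting of the counting is not given in the sources used here. The span of KRT7 also overlaps KRT87P on the opposite strand and KRT86 on the same strand, where strand cannot tell reads apart. Of the 10 genes, KRT5 and KRT8 had a promoter window in the RefSeq table (GRCh38). On either strand, neither window held the TATA box letters TATAAA, found in 11.5% of 35116 windows. Nor did they hold the GC box letters GGGCGG (45% of windows) or the AP-1 letters TGANTCA (7.71%).

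Gene counts per library ran from 5626146 to 8631273. Levels are given as TMM-scaled CPM (the count scaled to a common effective library size), and as CPM per kb of the named transcript where genes are compared with each other. The share of records that did not align uniquely moved with THZ1: it was 21.9% to 23.4% with THZ1 against 12.2% to 13.4% with DMSO in BxPC3, 51.7% to 54.9% with THZ1 against 13.5% to 13.8% with DMSO in Panc327, and 12% to 13.8% with THZ1 against 12.8% to 14.1% with DMSO in SUIT2. Its part in the keratin results was not tested. All 7 epithelial markers examined reached 1 CPM in BxPC3 and Panc327 and 6 of 7 did in SUIT2, where ESRP1, a splicing factor of epithelial cells, had 0.438 ± 0.11 CPM with THZ1 and 0.517 ± 0.293 CPM with DMSO (SD, n = 3 each). VIM, the intermediate filament of mesenchymal cells, had 17.5 CPM in BxPC3, 0.935 CPM in Panc327 and 1603 CPM in SUIT2 with DMSO. Of the defining markers of other cell types, DCN of fibroblasts and INS, GCG and SST of islets were at 0 counts in every group and the leukocyte marker PTPRC was at 0 in 5 of the 6. The summed fibroblast list was highest in Panc327, at 73.6 to 87.3 CPM with THZ1 and 62.7 to 64.5 CPM with DMSO, most of it COL1A1. Some markers of these lists rose with THZ1 as the keratins did, and others fell. Of 3 fibroblast markers tested, 1 rose and 1 fell in BxPC3, and 2 rose and 1 fell in Panc327. Of 3 endothelial markers tested, 1 rose and 1 fell in BxPC3, and 1 rose in Panc327. Of all genes, 35.2% rose and 34.1% fell in BxPC3, and 35.6% rose and 37.8% fell in Panc327. PDGFRA, a fibroblast receptor, had 3.29 CPM with THZ1 and 5.76 CPM with DMSO in BxPC3. In Panc327 it had 2.59 CPM with THZ1 and 8.36 CPM with DMSO. COL1A1, a fibroblast collagen, rose by log2 0.88 in BxPC3 and 0.50 in Panc327. CD68, a macrophage marker present in all 6 groups, had 36.4 CPM with THZ1 and 21.5 CPM with DMSO in BxPC3 (log2 0.76), 22.9 CPM with THZ1 and 9.3 CPM with DMSO in Panc327 (log2 1.30), and 43.3 CPM with THZ1 and 44.9 CPM with DMSO in SUIT2, where it was not called. VWF of endothelium rose by log2 0.50 in Panc327 (0.17 and not called with library size only). Their part in the keratin results was not tested.

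With DMSO the lines fell into 2 kinds of keratin profile. BxPC3 and Panc327 expressed the simple keratins together with KRT5, KRT6A and KRT17 at high levels. SUIT2 expressed KRT8, KRT18 and KRT19 with nearly none of KRT5, KRT6A, KRT14 and KRT17. KRT14 was itself low, at 20.7 CPM in BxPC3 and 26.2 CPM in Panc327. KRT15 did not split the lines in this way, with 36.7 CPM in BxPC3, 13.5 CPM in Panc327 and 9.11 CPM in SUIT2. Its difference to SUIT2 was log2 2.02 in BxPC3 and 0.57 in Panc327. Per kb of transcript, KRT17 was the highest of the 10 in BxPC3 (1659 ± 20.6 CPM per kb) and in Panc327 (853 ± 35.4 CPM per kb), and KRT8 the highest in SUIT2 (2321 ± 59.4 CPM per kb; SD, n = 3 each). In BxPC3, KRT19 and KRT5 followed at 1130 and 1117 CPM per kb with overlapping libraries, then KRT7, KRT18, KRT8 and KRT6A between 881 and 687, and KRT15 and KRT14 far below at 15.3 and 12.4. In Panc327, KRT8 and KRT6A overlapped at 668 and 646 CPM per kb, KRT19 and KRT7 at 577 and 567, and KRT5 and KRT18 at 522 and 516. In SUIT2, KRT18 had 1487 and KRT19 654 CPM per kb, and the next gene, KRT7, only 7.75. The order depends on the length used: per kb of all annotated exons of a gene, a choice added after the data were seen, KRT8 was at 0.368, KRT15 at 0.457, KRT18 at 0.707 and KRT17 at 0.919 times these levels, and the other 6 did not move. KRT18 then stood above KRT8 in all 3 lines, at 1051 and 855 CPM per kb in SUIT2, and KRT14 above KRT15 in BxPC3, while KRT17 stayed highest in BxPC3 and Panc327.

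**Figure D1:**
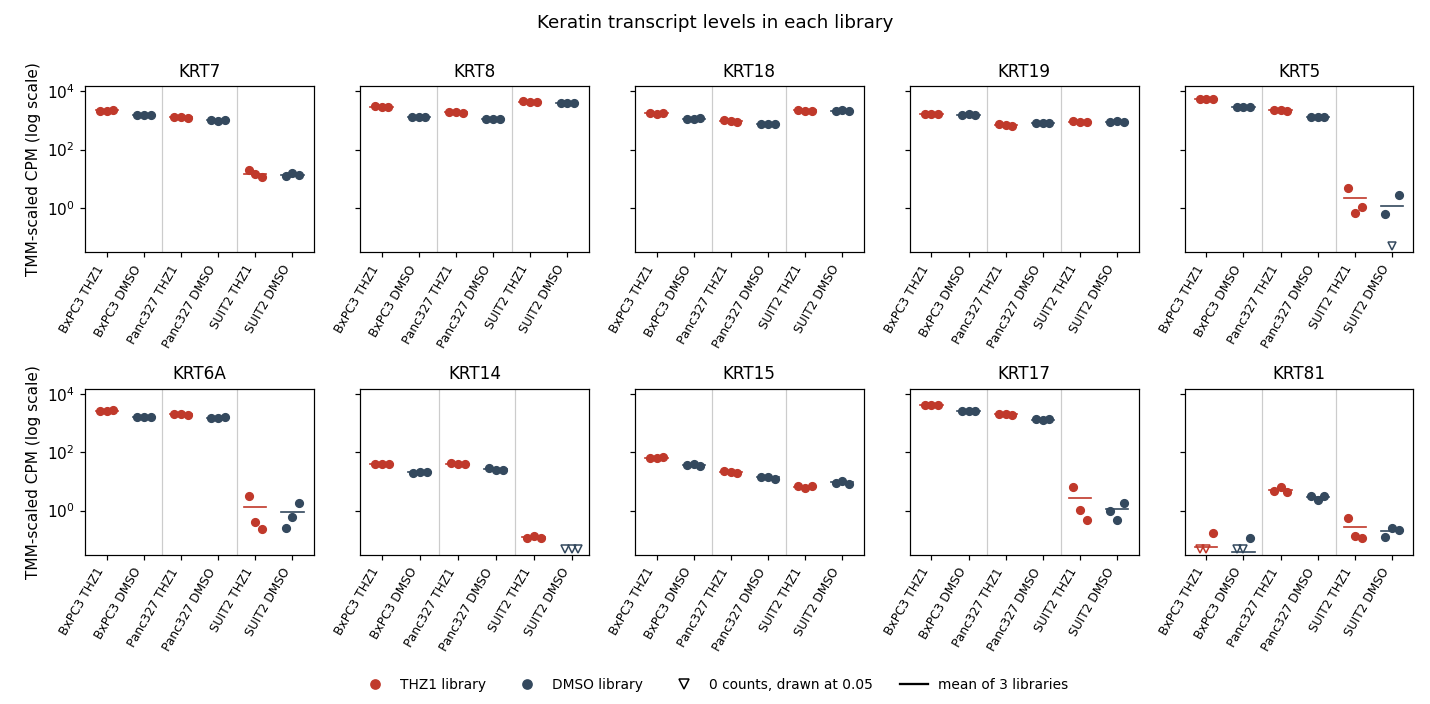
Level of each keratin in every library, in TMM-scaled CPM on a log axis, with the mean of 3 libraries as a line and 0 counts drawn as open triangles at 0.05. KRT5, KRT6A, KRT14 and KRT17 stand far lower in the 6 SUIT2 libraries than in the other 12, whereas KRT8 and KRT18 stand highest there.

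The line comparisons were tested with edgeR's quasi-likelihood method, Benjamini-Hochberg adjusted over 14011 genes. BxPC3 over Panc327 called 7 keratins higher and 2 lower, where 79.3% of all genes were called (38.6% higher, 40.7% lower). BxPC3 over SUIT2 called 7 higher and 2 lower against 78.6% of all genes (38.9% higher, 39.7% lower). Panc327 over SUIT2 called 7 higher and 3 lower against 82.5% (42.9% higher, 39.6% lower). A call between lines was thus the usual state of a gene, and the sizes tell more than the counts: KRT5, KRT6A and KRT17 differed from SUIT2 by more than 10 log2 units in either line. Without SUIT2 DMSO replicate 2, KRT5 and KRT17 in Panc327 were at 9.51 and 9.78, and without SUIT2 DMSO replicate 1 KRT5 in Panc327 was at 9.76.

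**Figure D2:**
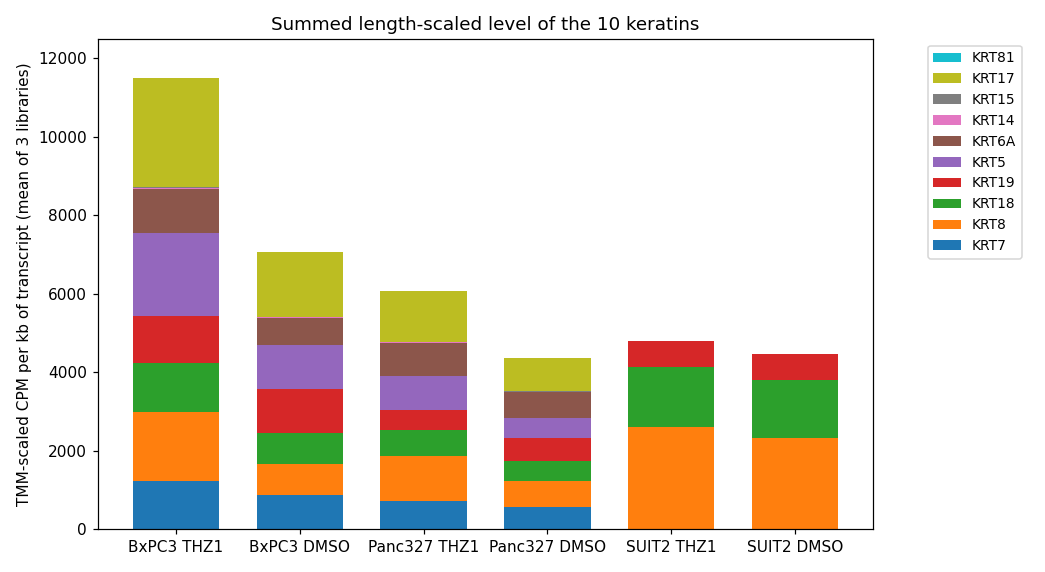
Summed mean level of the 10 keratins in each group, in TMM-scaled CPM per kb of the named transcript, stacked by gene. KRT5, KRT6A and KRT17 make up much of the BxPC3 and Panc327 columns and are not visible in SUIT2, where KRT8, KRT18 and KRT19 fill the column.

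THZ1 raised most of these keratins relative to the median gene in BxPC3 and Panc327 and few in SUIT2. In BxPC3, 8 of 10 rose and none fell, where 69.4% of all genes were called, 35.2% higher and 34.1% lower. In Panc327, 9 rose and 1, KRT19, fell, where 73.4% were called, 35.6% higher and 37.8% lower. In SUIT2, KRT8 rose and KRT15 fell, and the other 8 were not called, where 14.6% of genes were called (6.95% higher, 7.64% lower) and 27.1% had an unadjusted p under 0.05. Over the members above the floor of 3 counts a group, the median log2 fold change was 0.73 in BxPC3 (9 genes), 0.61 in Panc327 (10 genes) and 0.17 in SUIT2 (9 genes), where the median of all genes was 0.00, -0.01 and 0.01. These changes are relative: with scaling by library size only, the median of all genes stood at -0.35 in BxPC3 and -0.34 in Panc327, and the higher share of calls was 26.8% in place of 50.8% in BxPC3 and 31% in place of 48.5% in Panc327. Under that scaling 7 of the 8 rises in BxPC3 and 5 of the 9 in Panc327 held. RNA per cell was not measured. Among genes of at least 10 CPM the log2 fold change rose with the level, with a Spearman rho across genes of 0.396 in BxPC3 (9017 genes), 0.348 in Panc327 (9179 genes) and 0.046 in SUIT2 (9205 genes); genes are not independent replicates, the level includes the THZ1 libraries, and the part of this trend in the rise of the abundant keratins was not tested.

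**Figure D3:**
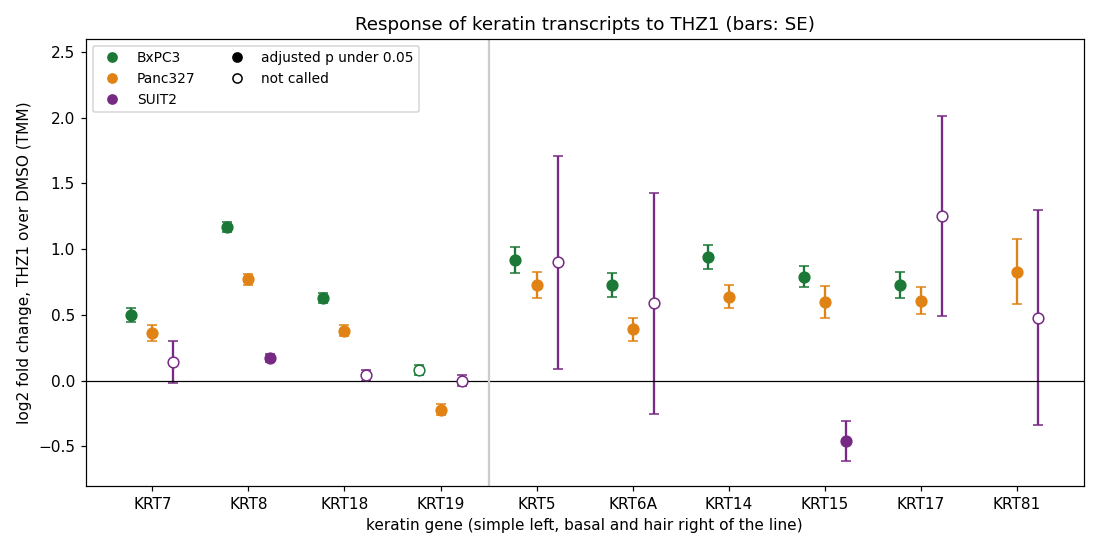
Log2 fold change of each keratin with THZ1 over DMSO in the 3 lines, with SE bars, filled where the edgeR adjusted p is under 0.05. KRT8 is the largest called change in BxPC3 at 1.17, KRT19 is the only filled point below 0 in Panc327, and in SUIT2 only KRT8 and KRT15 are filled; KRT81 in BxPC3 and KRT14 in SUIT2 are left out because both groups are at or under 3 counts.

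KRT8, the type II keratin of simple epithelia, had 3005, 2876 and 2965 CPM in the BxPC3 THZ1 libraries against 1317, 1316 and 1297 CPM with DMSO. In Panc327 it had 1986, 1953 and 1821 CPM with THZ1 against 1143, 1112 and 1124 CPM with DMSO. In SUIT2 it had 4694, 4356 and 4122 CPM with THZ1 against 3841, 4030 and 3877 CPM with DMSO. The groups did not overlap in any line, though in SUIT2 the lowest THZ1 library lay just above the highest DMSO library. KRT8 rose 2.25-fold in BxPC3 (log2 1.17, SE 0.04, edgeR adjusted p = 1.29e-47), 1.7-fold in Panc327 (log2 0.77, SE 0.04, edgeR adjusted p = 1.25e-34) and 1.12-fold in SUIT2 (log2 0.17, SE 0.03, edgeR adjusted p = 0.000341). The SUIT2 call was lost when THZ1 replicate 1 and DMSO replicate 3, described below with the trace keratins, were both left out (log2 0.10, edgeR adjusted p = 0.102). With DMSO, KRT8 was lower in BxPC3 and in Panc327 than in SUIT2, by log2 -1.58 and -1.80.

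KRT18, the type I partner of KRT8, had 1798, 1705 and 1788 CPM in BxPC3 with THZ1 against 1120, 1146 and 1153 CPM with DMSO. Panc327 had 998, 976 and 887 CPM with THZ1 against 735, 733 and 731 CPM with DMSO. SUIT2 had 2269, 2135 and 2092 CPM with THZ1 against 2075, 2188 and 2071 CPM with DMSO. THZ1 and DMSO libraries stood apart in BxPC3 and Panc327 and overlapped in SUIT2. KRT18 rose by log2 0.63 in BxPC3 (SE 0.04, edgeR adjusted p = 7.36e-29) and by 0.38 in Panc327 (SE 0.04, edgeR adjusted p = 7.34e-16), and the SUIT2 change of 0.04 was not called (SE 0.04, edgeR adjusted p = 0.549). With scaling by library size only the Panc327 rise was 0.05 and no longer called (edgeR adjusted p = 0.155). The order of the lines was that of KRT8, with differences to SUIT2 of log2 -0.89 in BxPC3 and -1.53 in Panc327 under DMSO.

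KRT19, the small type I keratin of duct cells that lacks a tail domain, was the member not called higher in any line. It had 1619, 1656 and 1706 CPM in BxPC3 with THZ1 against 1516, 1636 and 1559 CPM with DMSO. The Panc327 libraries had 725, 695 and 642 CPM with THZ1 against 821, 792 and 795 CPM with DMSO. In SUIT2 it had 981, 845 and 894 CPM with THZ1 against 875, 955 and 897 CPM with DMSO. Libraries overlapped in BxPC3 and SUIT2, and in Panc327 every THZ1 library was below every DMSO library. KRT19 fell in Panc327 (log2 -0.22, SE 0.04, edgeR adjusted p = 4.21e-06), and the changes in BxPC3 (log2 0.08, SE 0.04, edgeR adjusted p = 0.0721) and SUIT2 (log2 -0.00, SE 0.04, edgeR adjusted p = 1) were not called. The BxPC3 value depended on the scaling: it was 0.12 and called with RLE size factors (edgeR adjusted p = 0.00593) and -0.32 and called with library size only (edgeR adjusted p = 5.87e-11). DESeq2 gave -0.11 for the fall in Panc327 (adjusted p = 0.052).

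KRT7, the type II keratin of duct and glandular epithelium, separated SUIT2 from the other lines among the simple keratins. It had 2151, 2165 and 2242 CPM in BxPC3 with THZ1 against 1496, 1565 and 1577 CPM with DMSO. In Panc327 it had 1327, 1335 and 1174 CPM with THZ1 against 1026, 965 and 995 CPM with DMSO. SUIT2 had 19.5, 14 and 11.1 CPM with THZ1 against 12.5, 15.1 and 13.1 CPM with DMSO. With DMSO it was 114-fold higher in BxPC3 than in SUIT2 and 73.2-fold higher in Panc327 than in SUIT2 (edgeR adjusted p = 1.63e-26 and 1.18e-25). THZ1 raised it by log2 0.50 in BxPC3 (SE 0.05, edgeR adjusted p = 2.56e-08) and by 0.36 in Panc327 (SE 0.06, edgeR adjusted p = 4.42e-06); the SUIT2 libraries overlapped and the value of 0.14 was not called (SE 0.16, edgeR adjusted p = 0.632). With library size only, KRT7 was at 0.10 in BxPC3 and 0.04 in Panc327 and was called in neither (edgeR adjusted p = 0.0638 and 0.54).

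KRT5, the type II keratin of basal cells, had 5342, 5270 and 5426 CPM in BxPC3 with THZ1 against 2841, 2814 and 2829 CPM with DMSO. Panc327 had 2264, 2286 and 2024 CPM with THZ1 against 1329, 1322 and 1309 CPM with DMSO. In SUIT2 it had 4.82, 0.677 and 1.04 CPM with THZ1 against 0.607, 0 and 2.87 CPM with DMSO. THZ1 libraries stood wholly above DMSO libraries in BxPC3 and Panc327 and overlapped with them in SUIT2. KRT5 rose 1.89-fold in BxPC3 (log2 0.92, SE 0.10, edgeR adjusted p = 1.8e-06) and 1.66-fold in Panc327 (log2 0.73, SE 0.10, edgeR adjusted p = 2.01e-05), and the SUIT2 value was not called (log2 0.90, SE 0.81, edgeR adjusted p = 0.527). With DMSO, KRT5 was higher by log2 11.16 in BxPC3 and by log2 10.06 in Panc327 than in SUIT2. Without SUIT2 DMSO replicate 3, the library with most KRT5 counts of that group, these KRT5 differences were 13.10 and 12, and without DMSO replicate 2, which has none, 10.61 and 9.51.

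KRT14, the type I partner of KRT5 in basal cells, was far less abundant than KRT5. It had 39.7, 40.0 and 39.4 CPM in BxPC3 with THZ1 against 19.6, 21.2 and 21.3 CPM with DMSO. The Panc327 libraries had 41.8, 39.5 and 40.4 CPM with THZ1 against 28.6, 25.0 and 24.9 CPM with DMSO. SUIT2 had 1 count in each THZ1 library and 0 counts in each DMSO library, so no fold is given there. KRT14 rose by log2 0.94 in BxPC3 (SE 0.09, edgeR adjusted p = 1.03e-15) and by 0.64 in Panc327 (SE 0.09, edgeR adjusted p = 7.39e-10). With DMSO it was at least 176-fold higher in BxPC3 and at least 222-fold higher in Panc327 than in SUIT2, setting the SUIT2 group at 3 counts in all, and it was the basal keratin of this set that was lower in BxPC3 than in Panc327 (log2 -0.34, SE 0.09, edgeR adjusted p = 0.000631).

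KRT15, a type I keratin of basal keratinocytes and of stem cells in several epithelia, was the member that moved in opposite directions. It had 63.0, 62.6 and 65.6 CPM in BxPC3 with THZ1 against 35.7, 40.3 and 34.3 CPM with DMSO. In Panc327 it had 22.4, 20.1 and 18.9 CPM with THZ1 against 14.1, 14.3 and 12.2 CPM with DMSO. SUIT2 had 6.83, 5.69 and 7.18 CPM with THZ1 against 9.11, 10.3 and 7.96 CPM with DMSO. The groups stood apart in all 3 lines, with THZ1 above DMSO in BxPC3 and Panc327 and below it in SUIT2. KRT15 rose by log2 0.79 in BxPC3 (SE 0.08, edgeR adjusted p = 7.57e-16) and 0.60 in Panc327 (SE 0.12, edgeR adjusted p = 4.25e-06) and fell in SUIT2 (log2 -0.46, SE 0.15, edgeR adjusted p = 0.0295). The SUIT2 counts were 42 to 62 with THZ1 and 72 to 84 with DMSO. That fall was no longer called without THZ1 replicate 1 (-0.48, edgeR adjusted p = 0.054), THZ1 replicate 2 (-0.37, 0.141), DMSO replicate 1 (-0.45, 0.0654) or DMSO replicate 2 (-0.36, 0.161).

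KRT17, a type I keratin induced in stressed epidermis and a marker of basal-like pancreatic tumours, had 4211, 4095 and 4256 CPM in BxPC3 with THZ1 against 2480, 2536 and 2532 CPM with DMSO. Panc327 had 1982, 2020 and 1912 CPM with THZ1 against 1327, 1231 and 1322 CPM with DMSO. KRT6A, a type II keratin of the same stress response, had 2647, 2569 and 2680 CPM in BxPC3 with THZ1 against 1617, 1572 and 1570 CPM with DMSO. Every THZ1 library of both genes lay above every DMSO library in BxPC3 and in Panc327. In Panc327, KRT6A had 2021, 2032 and 1795 CPM with THZ1 against 1502, 1437 and 1538 CPM with DMSO. KRT17 rose by log2 0.73 in BxPC3 (SE 0.10, edgeR adjusted p = 1.16e-05) and 0.61 in Panc327 (SE 0.10, edgeR adjusted p = 7.86e-05). KRT6A rose by log2 0.73 in BxPC3 (SE 0.09, edgeR adjusted p = 4.02e-06) and 0.39 in Panc327 (SE 0.09, edgeR adjusted p = 0.00127). With library size only, KRT6A in Panc327 was at 0.06 and not called (edgeR adjusted p = 0.54). With DMSO, KRT6A did not pass the test between BxPC3 and Panc327 (log2 0.09, SE 0.09, edgeR adjusted p = 0.367) although its libraries stood apart, and KRT17 was higher in BxPC3 than in Panc327 (log2 0.96, SE 0.10, edgeR adjusted p = 6.48e-07).

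In SUIT2 both genes were near the lower end of detection. KRT17 had 6.27, 1.08 and 0.463 CPM with THZ1 against 0.971, 0.488 and 1.88 CPM with DMSO, and KRT6A had 3.25, 0.406 and 0.232 CPM with THZ1 against 0.243, 0.61 and 1.77 CPM with DMSO. Neither was called there (log2 1.25, SE 0.76 and log2 0.59, SE 0.84; edgeR adjusted p = 0.325 and 0.721). With DMSO the difference to SUIT2 was log2 11.09 for KRT17 and 10.75 for KRT6A in BxPC3, and 10.13 for KRT17 and 10.67 for KRT6A in Panc327. Without SUIT2 DMSO replicate 3 these were 11.71, 11.80, 10.75 and 11.71.

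In BxPC3 and Panc327, the DESeq2 calls of KRT5, KRT6A and KRT17 depended on whether the SUIT2 libraries shared the fit. With edgeR, each of these genes was called higher in both lines with and without those libraries in the fit. DESeq2 on all 18 libraries gave log2 0.96, 0.77 and 0.78 in BxPC3 with adjusted p = 0.27, 0.197 and 0.265, and 0.85, 0.50 and 0.73 in Panc327 with adjusted p = 0.32, 0.403 and 0.288. DESeq2 on the 6 libraries of the line, an alternative added after the data were seen, gave adjusted p = 1.4e-209, 9.33e-103 and 2.41e-124 in BxPC3 and 6.26e-67, 1.66e-18 and 2.73e-58 in Panc327. The edgeR fit on the 6 libraries of the line gave 8.39e-34, 9.15e-28 and 9.01e-29 in BxPC3 and 4.81e-34, 1.12e-16 and 4.44e-29 in Panc327.

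KRT81, the hair keratin, was detected at low level in Panc327 and scarcely elsewhere. It had 4.69, 6.41 and 4.34 CPM in Panc327 with THZ1 against 3.10, 2.36 and 3.17 CPM with DMSO, which are 80 counts with THZ1 and 79 counts with DMSO in all. The groups did not overlap, and KRT81 rose by log2 0.83 (SE 0.25, edgeR adjusted p = 0.0022), although with library size only the value was 0.50 and not called (edgeR adjusted p = 0.0629). BxPC3 had 1 count over its 3 THZ1 libraries and 1 over its 3 DMSO libraries, and SUIT2 had 7 with THZ1 and 5 with DMSO. With DMSO the ratio of BxPC3 to Panc327 was 0.0135 (95% interval 0.000337 to 0.0773, counting error only), and Panc327 was higher than SUIT2 by log2 3.76 (SE 0.47, edgeR adjusted p = 9.32e-12). KRT86, which shares 38.4% of the KRT81 windows, had 10 counts in Panc327 with THZ1 and 5 with DMSO.

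Next the log2 fold changes with THZ1 were set against each other, line by line. KRT8, KRT18, KRT19 and KRT6A responded more positively in BxPC3 than in Panc327, by 0.40 (SE 0.05, edgeR adjusted p = 1.63e-10), 0.25 (SE 0.05, 4.8e-05), 0.30 (SE 0.06, 2.2e-05) and 0.34 (SE 0.12, 0.0439), where 36.3% of all genes were called (22.2% higher, 14.1% lower). The KRT6A call was lost in 11 of the 12 refits that left out 1 library of these lines, and the KRT18 difference was 0.11 and not called when only BxPC3 and Panc327 were fitted (edgeR adjusted p = 0.0575). KRT8, KRT18 and KRT15 responded more positively in BxPC3 than in SUIT2, by 1.01, 0.59 and 1.25 (SE 0.05, 0.05 and 0.17; edgeR adjusted p = 1.18e-31, 2.94e-18 and 6.13e-10), where 54.9% of genes were called (27.3% higher, 27.6% lower). In Panc327 against SUIT2 the same 3 genes differed by 0.60, 0.34 and 1.06 (SE 0.05, 0.05 and 0.19; edgeR adjusted p = 5.04e-19, 9.31e-09 and 1.13e-06), and KRT19 by -0.22 (SE 0.06, edgeR adjusted p = 0.000979), where 60.7% were called (28.3% higher, 32.4% lower). The differences of KRT5, KRT6A and KRT17 to SUIT2 had SE of 0.77 or more and were not called, so they say little about whether those responses differ. Without SUIT2 THZ1 replicate 1, BxPC3 over SUIT2 called 7 of the 10 higher and Panc327 over SUIT2 called 6. The shares of all genes given above belong to the fit of all libraries, so these refit counts stand without a share.

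Because type I and type II chains pair, the ratio of partner transcripts was also taken within each library, where scaling cannot change it. The ratio of KRT8 to KRT18 counts was higher with THZ1 in every line. Its log2 was 0.74 ± 0.01 with THZ1 and 0.20 ± 0.03 with DMSO in BxPC3, 1.01 ± 0.02 with THZ1 and 0.62 ± 0.02 with DMSO in Panc327, and 1.02 ± 0.04 with THZ1 and 0.89 ± 0.01 with DMSO in SUIT2 (SD, n = 3 each). In each line, every THZ1 library lay above every DMSO library. The exact two-sided permutation p was 0.1 in each line, the smallest that 3 against 3 allows (0.167 adjusted over 10 such ratios). KRT7 to KRT19 shifted the same way in BxPC3 (0.40 ± 0.01 with THZ1, -0.02 ± 0.04 with DMSO) and Panc327 (0.90 ± 0.04 with THZ1, 0.31 ± 0.02 with DMSO), again with exact permutation p = 0.1, and overlapped in SUIT2 (-5.96 ± 0.34 with THZ1, -6.06 ± 0.08 with DMSO; exact permutation p = 0.7).

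The basal pair behaved otherwise. The log2 ratio of KRT5 to KRT14 was 7.07 ± 0.03 with THZ1 and 7.09 ± 0.07 with DMSO in BxPC3, and 5.75 ± 0.10 with THZ1 and 5.66 ± 0.11 with DMSO in Panc327, with overlapping libraries (exact permutation p = 0.8 and 0.4). KRT6A to KRT17 was -0.67 ± 0.00 with THZ1 and -0.67 ± 0.04 with DMSO in BxPC3 (exact permutation p = 1), and in Panc327 it was -0.02 ± 0.06 with THZ1 and 0.21 ± 0.02 with DMSO, with all THZ1 libraries below all DMSO libraries (exact permutation p = 0.1). A ratio shows unequal change and not which partner changed. Counts of KRT8 and KRT18 may lack an unknown part of the reads from their shared windows, and the part of this in the ratio was not tested.

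**Figure D4:**
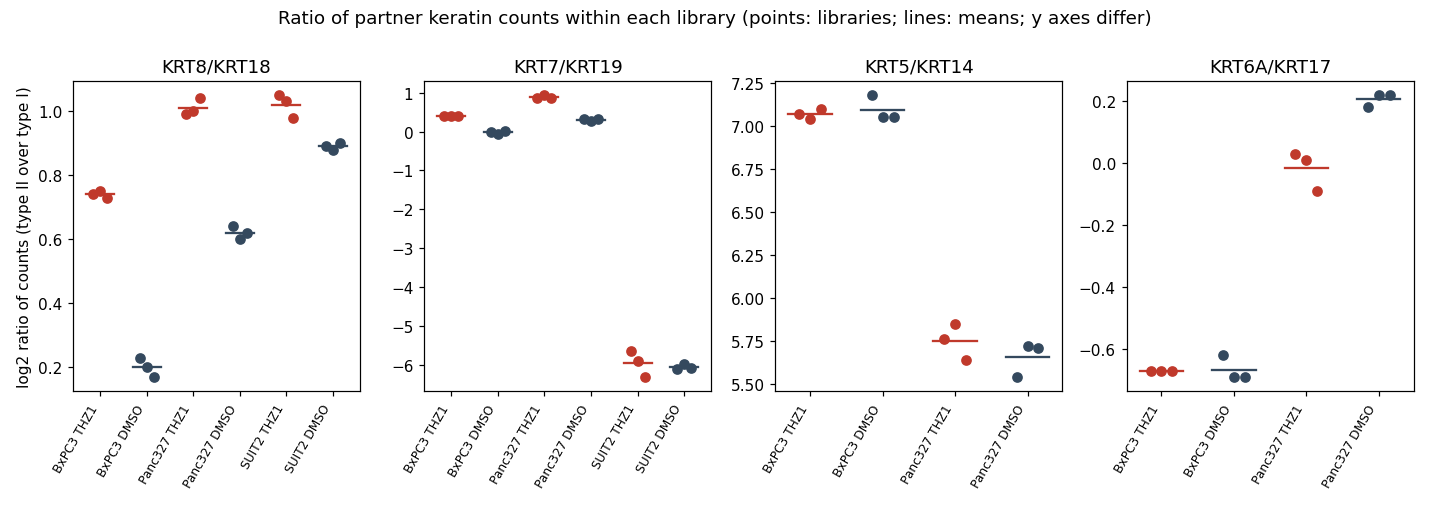
Log2 ratio of type II to type I partner counts in each library, with means as lines, for 4 pairs, on y axes that differ between panels. KRT8/KRT18 is higher with THZ1 in all 3 lines, by 0.54 in BxPC3, 0.39 in Panc327 and 0.13 in SUIT2, and KRT5/KRT14 overlaps between treatments in both lines shown.

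The share of all gene counts was also taken, which amounts to scaling by library size only. The 10 keratins took 1.7% ± 0.0197 with THZ1 and 1.35% ± 0.0116 with DMSO in BxPC3. In Panc327 they took 0.95% ± 0.0441 with THZ1 and 0.844% ± 0.0166 with DMSO. In SUIT2 they took 0.823% ± 0.0425 with THZ1 and 0.774% ± 0.0254 with DMSO (SD, n = 3 each). Libraries stood apart in BxPC3 and Panc327 and overlapped in SUIT2 (exact two-sided permutation p = 0.1, 0.1 and 0.2; 0.18, 0.18 and 0.257 adjusted over 9 shares). KRT5, KRT6A, KRT14 and KRT17 together took 0.994% with THZ1 and 0.745% with DMSO in BxPC3, and 0.531% with THZ1 and 0.447% with DMSO in Panc327. The 4 simple keratins took 0.697% with THZ1 and 0.597% with DMSO in BxPC3, and 0.417% with THZ1 and 0.395% with DMSO in Panc327, where the libraries overlapped (exact permutation p = 0.3).

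The few basal keratin counts in SUIT2 were concentrated in the same libraries. KRT5 had 43, 5 and 9 counts in THZ1 replicates 1, 2 and 3 and 5, 0 and 26 in DMSO replicates 1, 2 and 3. KRT17 had 56, 8 and 4 with THZ1 and 8, 4 and 17 with DMSO, and KRT6A had 29, 3 and 2 with THZ1 and 2, 5 and 16 with DMSO. KRT13, a keratin of stratified mucosa outside the 10, had 12, 1 and 2 with THZ1 and 3, 1 and 5 with DMSO. THZ1 replicate 1 and DMSO replicate 3 thus held the most counts of all 4 genes in their groups. Set against the BxPC3 level of the same treatment, THZ1 replicate 1 had 0.0901% of KRT5, 0.123% of KRT6A, 0.15% of KRT17 and 0.117% of KRT13, and DMSO replicate 3 had 0.102%, 0.111%, 0.0747% and 0.0909%. KRT7 in SUIT2 stood at 0.508% to 0.979% of the BxPC3 level in all 6 libraries. It too was highest in THZ1 replicate 1 of its group, with 174 counts against 103 and 96 in THZ1 replicates 2 and 3, but not in DMSO replicate 3, with 119 counts against 103 and 124 in DMSO replicates 1 and 2. KRT15 was highest in CPM in neither library. Where these counts came from was not tested. The fold changes in SUIT2 rest on these libraries: without THZ1 replicate 1 they were -0.47 for KRT5, -1.49 for KRT6A and -0.59 for KRT17, and without DMSO replicate 3 they were 2.84, 1.64 and 1.87, none of them called.

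**Figure D5:**
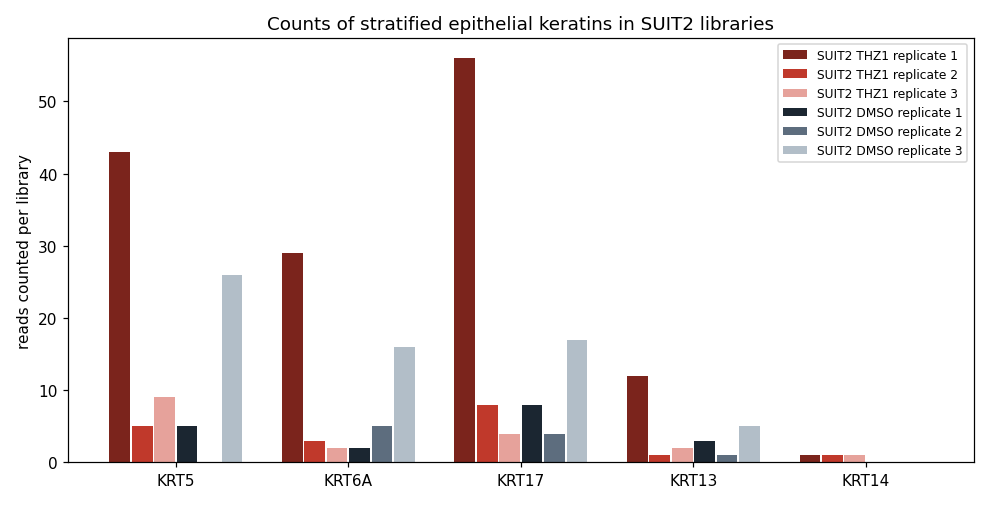
Reads counted for 5 keratins of stratified epithelia in each of the 6 SUIT2 libraries. THZ1 replicate 1 and DMSO replicate 3 have the highest bars of their groups for KRT5, KRT6A, KRT17 and KRT13, with at most 56 reads, and KRT14 has 1 read in each THZ1 library and none with DMSO.

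Of 45 other keratin genes in the files 9 passed the filter on low counts, which lets a gene through when 1 group is high enough. KRT13 was the most abundant of them in BxPC3 and rose there (1146 ± 21 CPM with THZ1, 608 ± 21.2 CPM with DMSO; log2 0.91, SE 0.04, edgeR adjusted p = 1.95e-32) and in Panc327 (249 ± 12.6 CPM with THZ1, 166 ± 5.5 CPM with DMSO; log2 0.58, SE 0.05, edgeR adjusted p = 1.06e-17). KRT4, the type II partner of KRT13 in mucosa, rose by log2 0.66 in BxPC3 and 0.59 in Panc327, and KRT6B, a close relative of KRT6A, by 1.03 and 0.44 (0.12 and not called in Panc327 with library size only). KRT16, the type I partner of KRT6A, had 6.74 CPM with THZ1 and 2.58 CPM with DMSO in BxPC3 (log2 1.38), and 66.6 CPM with THZ1 and 58.5 CPM with DMSO in Panc327, where its rise of log2 0.19 turned to -0.14 with library size only. KRT80, a type II keratin found in many epithelia, fell in all 3 lines. It had 12.7 CPM with THZ1 and 23.6 CPM with DMSO in BxPC3 (log2 -0.89), 117 CPM with THZ1 and 205 CPM with DMSO in Panc327 (log2 -0.81), and 196 CPM with THZ1 and 257 CPM with DMSO in SUIT2 (log2 -0.39; edgeR adjusted p = 1.42e-11, 1.08e-25 and 1.87e-10). KRT10, a keratin of differentiated epidermis, rose by log2 0.44 in BxPC3 and 0.39 in Panc327, and with library size only was at 0.05 and 0.07, not called in either. Of 4 type I genes tested, 3 rose and 0 fell in BxPC3, 3 rose and 1 fell in Panc327, and SUIT2 had no call. Of 5 type II genes, 2 rose and 1 fell in BxPC3, 3 rose and 1 fell in Panc327, and 1 fell in SUIT2. Of all genes, 35.2% rose and 34.1% fell in BxPC3, 35.6% rose and 37.8% fell in Panc327, and 6.95% rose and 7.64% fell in SUIT2. The type I gene that fell in Panc327 was KRT23 (3.53 CPM with THZ1, 5.84 CPM with DMSO).

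Keratin filaments end on desmosomes at cell contacts and on hemidesmosomes at the basement membrane. Of 22 anchor genes listed, all tested, 15 rose and 3 fell in BxPC3 (median log2 0.35), 15 rose and 5 fell in Panc327 (median 0.34), and 1 rose in SUIT2 (median 0.06), with medians taken over the genes above the floor of 3 counts a group (20 in BxPC3, 22 in Panc327, 20 in SUIT2). Of all genes, 35.2% rose and 34.1% fell in BxPC3, 35.6% rose and 37.8% fell in Panc327, and 6.95% rose and 7.64% fell in SUIT2, shares against which the lists below also stand. COL17A1, the hemidesmosomal collagen, had 4271 CPM with THZ1 and 2304 CPM with DMSO in BxPC3 (log2 0.89) and 2744 CPM with THZ1 and 1337 CPM with DMSO in Panc327 (log2 1.04). In BxPC3, CD151, a tetraspanin of hemidesmosomes, rose by 0.86 and PLEC, the linker plectin, by 0.84. In Panc327, ITGA6, an integrin of hemidesmosomes, rose by 0.97 and PERP, a desmosomal membrane protein, by 0.82. EPPK1, the keratin-binding epiplakin, fell in BxPC3 (8.78 CPM with THZ1, 29.3 CPM with DMSO; log2 -1.75) and in Panc327 (49.1 CPM with THZ1, 127 CPM with DMSO; log2 -1.37). PKP4 and DST fell by 0.38 and 0.37 on the log2 scale in BxPC3, and EVPL and PKP2 by 0.59 and 0.43 in Panc327. The gene called in SUIT2 was DSP, desmoplakin (log2 0.15, edgeR adjusted p = 0.0101; 0.0572 without both SUIT2 libraries named above). With library size only, 7 anchors rose and 8 fell in BxPC3, and 9 rose and 8 fell in Panc327. Of all genes called under that scaling, 26.8% were higher in BxPC3, 31% in Panc327 and 39.3% in SUIT2. These are shares of the called genes and not of all genes tested. Beside them stand the rises among the called genes of a list, here and for the lists below, and not the rises among all its genes.

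Of 9 tested genes of the cornified envelope, the cross-linked shell of terminally differentiated keratinocytes, 4 rose and 2 fell in BxPC3, and 3 rose and 3 fell in Panc327. Scaled by library size only, 4 rose and 3 fell in BxPC3 and 1 rose and 3 fell in Panc327, and with RLE size factors 5 rose and 2 fell in BxPC3 and 3 rose and 1 fell in Panc327. The median log2 fold change of those above the floor was 0.50 in BxPC3 (9 genes), 0.09 in Panc327 (8 genes) and -0.07 in SUIT2 (3 genes). In SUIT2 the gene called was SFN (log2 0.24, and 0.12 and not called without both SUIT2 libraries named above). CSTA, a protease inhibitor of the envelope, rose by 0.94 in BxPC3 and 1.25 in Panc327. SFN, the 14-3-3 sigma protein that binds KRT17, rose by 0.50 in BxPC3 and fell by 0.12 on the log2 scale in Panc327, where RLE size factors gave -0.00 and no call. Of 16 genes that bind, modify or fold keratins, 8 rose and 6 fell in BxPC3, 5 rose and 8 fell in Panc327, and SFN rose and HSPA8 fell in SUIT2, with medians of log2 0.08, -0.08 and 0.05 in BxPC3, Panc327 and SUIT2. DNAJB6, a chaperone that binds KRT18, had 282 CPM with THZ1 and 133 CPM with DMSO in BxPC3 (log2 1.09), and HSPB1, the small heat shock protein, rose by 0.88 in BxPC3 and 0.62 in Panc327. HSPA8, the constitutive heat shock protein 70, fell in each line, with 1767 CPM with THZ1 and 2884 CPM with DMSO in BxPC3 (log2 -0.71), 1128 CPM with THZ1 and 3302 CPM with DMSO in Panc327 (log2 -1.55) and 3069 CPM with THZ1 and 3662 CPM with DMSO in SUIT2 (log2 -0.25). TCHP, trichoplein, and FAM83H, both binders of keratin filaments, had log2 fold changes of -1.15 and -0.97 in BxPC3 and -1.49 and -1.51 in Panc327, all called lower. With library size only, 6 of the 16 rose and 9 fell in BxPC3, and 4 rose and 9 fell in Panc327.

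Among 8 tested intermediate filament genes outside the keratins, 4 rose and 1 fell in BxPC3, 2 rose and 1 fell in Panc327, and 1, NES, rose in SUIT2, with medians above the floor of log2 0.24, 0.03 and -0.01 in BxPC3, Panc327 and SUIT2. Scaling by library size only gave 3 rises and 3 falls in BxPC3, and 2 rises and 4 falls in Panc327. LMNA, the lamin of the nuclear envelope, had 1500 CPM with THZ1 and 738 CPM with DMSO in BxPC3 (log2 1.02) and 749 CPM with THZ1 and 459 CPM with DMSO in Panc327 (log2 0.71). LMNB2 rose by 0.62 and 0.61 in the same lines. SYNM, synemin, fell by 1.33 on the log2 scale in each. VIM rose in BxPC3 (33.8 CPM with THZ1, 17.5 CPM with DMSO; log2 0.95), was not called in Panc327, and had 1597 CPM with THZ1 and 1603 CPM with DMSO in SUIT2. NES was named after its value was seen, being under 10 CPM in SUIT2, and no gene of the list rose there without both SUIT2 libraries named above. Of the 7 epithelial markers, 5 rose and 2 fell in BxPC3 (median log2 0.70), 4 rose and 2 fell in Panc327 (0.28), and 2 rose and 1 fell in SUIT2 (-0.04). Under library size only, 4 rose and 3 fell in BxPC3, 3 rose and 3 fell in Panc327, and 1 rose and 1 fell in SUIT2. With TMM scaling but without both SUIT2 libraries named above, 1 of these markers rose and 0 fell in SUIT2. Their summed level was 2925 to 3013 CPM with THZ1 against 1867 to 1952 CPM with DMSO in BxPC3, 3157 to 3246 CPM with THZ1 against 2089 to 2164 CPM with DMSO in Panc327, and 719 to 734 CPM with THZ1 against 663 to 688 CPM with DMSO in SUIT2. CDH1, E-cadherin, rose by log2 0.72 in BxPC3 and 0.75 in Panc327. The markers that fell were ESRP1 (log2 -0.38) and ELF3 (-0.17) in BxPC3, CLDN4 (-0.41) and ESRP1 (-0.20) in Panc327, and EPCAM (-0.16) in SUIT2. With RLE size factors, ELF3 in BxPC3 (-0.13) and ESRP1 in Panc327 (-0.09) were not called. The part of these markers in the keratin results was not tested.

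For a simple type II, a simple type I and a basal keratin, the genes of most similar pattern were taken by Pearson correlation of log2(CPM + 1) over the 18 libraries, among 10979 genes. These points share their line, so the values describe line and treatment profiles and carry no test. KRT8 was most like RBBP7, CAPG and C9orf16 (r = 0.986, 0.985 and 0.983). KRT19 was most like MIDN, PATL1 and GLUL (r = 0.989, 0.987 and 0.985). KRT17 was most like COL4A6 and SLC38A5 (r = 0.998 each), genes that, like it, were nearly silent in SUIT2: COL4A6 averaged 630 CPM with THZ1 and 378 CPM with DMSO in BxPC3, 381 CPM with THZ1 and 194 CPM with DMSO in Panc327, and 0.224 CPM with THZ1 and 0.184 CPM with DMSO in SUIT2.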

How the data were processed

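RNA was measured by poly(A) sequencing in 18 libraries. The deposited files hold raw counts per gene symbol. Per the submitters' processing notes, the tools were TopHat2 2.1.0, HTSeq 0.6.1 and bcl2fastq 1.8.4, with build hg38. Annotation, strandedness and HTSeq mode: not given in the sources used here. The 5 summary entries of each file (21.3% to 64.6% of records) were left out.

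The keratins and gene lists were chosen with earlier results of these data known. Counts were fitted in R 4.3.3 with edgeR 4.0.16 (filterByExpr, minimum count 10 and minimum total 15, 14011 genes; TMM; 6 group means; robust quasi-likelihood; adjusted p under 0.05 made a call). Each SE was derived from the log2 fold change and its F statistic. Folds against 0 counts are bounds at 3 counts over the group. Lists name up to 3 called genes per direction with at least 10 CPM. Alternatives were RLE, library size only, no filter, DESeq2 1.42.0, limma 3.58.1 voom, leave-one-out, fits of the compared groups alone, a replicate block and a 2-fold threshold. Scripts were tested on simulated data. Replicate numbers did not pair libraries (correlation of deviations -0.135 to 0.065). Transcripts and positions are from GENCODE 29. Python 3.11.15, scipy 1.17.1 and matplotlib 3.10.9 made the tables and figures. For each of 3 keratins the 3 genes of most similar pattern were taken, of which 1 is not reported here.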

Additional observations from a re-analysis of the deposited data

Results flagged for a closer look

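Each keratin below was set apart because its response to THZ1 differed between 2 lines by the test of the difference itself (edgeR, adjusted over 14011 genes). KRT8 responded more in BxPC3 than in Panc327 (log2 0.40), more in BxPC3 than in SUIT2 (1.01), and more in Panc327 than in SUIT2 (0.60). KRT18 did likewise by 0.25, 0.59 and 0.34, though the first of these was not called when only BxPC3 and Panc327 were fitted. KRT19 was 0.30 more positive in BxPC3 than in Panc327 and -0.22 in Panc327 against SUIT2. KRT6A was 0.34 more positive in BxPC3 than in Panc327, a call lost in 11 of the 12 refits without 1 library of these lines. KRT15 was 1.25 more positive in BxPC3 and 1.06 more positive in Panc327 than in SUIT2, where it was the member of the set called lower. That fall in SUIT2 was no longer called without THZ1 replicate 1, THZ1 replicate 2, DMSO replicate 1 or DMSO replicate 2. The share of all genes called in these comparisons, 36.3%, 54.9% and 60.7%, stands beside these values.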

How the results depend on the processing

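Of the keratin counts called higher or lower, those for the line comparisons with DMSO changed by more than 1.5 times only with a 2-fold threshold. That threshold left 1 rise in BxPC3, 0 rises and 0 falls in Panc327, and 0 and 0 in SUIT2 (all genes: 2912, 3739 and 83). Between lines it left 2 higher and 1 lower for BxPC3 over Panc327 and 1 lower for BxPC3 over SUIT2 (all genes 4747, 4846 and, for Panc327 over SUIT2, 5559), and for differences of response 0 higher in BxPC3 over Panc327, and 1 higher and 0 lower in Panc327 over SUIT2 (all genes 1292, 2094 for BxPC3 over SUIT2, and 3129). With library size only, 1 keratin, KRT19 (-0.32), was lower in BxPC3, 5 were higher in Panc327, and in BxPC3 over SUIT2 1 response, KRT19 (-0.30), was lower. RLE gave 5 higher responses in BxPC3 over SUIT2 and 0 lower in Panc327 over SUIT2, and voom 7 higher in BxPC3 over Panc327 and 0 falls in SUIT2. DESeq2 gave 0 falls in Panc327, 0 lower responses in Panc327 over SUIT2 and 1300 genes in SUIT2, and on SUIT2 alone 0 falls and 815 genes. Leaving out each library gave 0 to 1 falls and 1353 to 1625 genes in SUIT2, 3 to 7 higher responses in BxPC3 over SUIT2 and 3 to 6 in Panc327 over SUIT2. No share of all genes is given here for the response counts of those refits. Without both SUIT2 libraries with most basal keratin counts, added after the data were seen, SUIT2 had 0 rises and 1162 genes, and BxPC3 over SUIT2 had 5 higher responses. Leaving out single libraries, the response difference of KRT17 ran from -1.14 to 1.33 in BxPC3 over SUIT2, and those of KRT6A and KRT17 from -1.26 to 1.87 and from -1.27 to 1.2 in Panc327 over SUIT2, with the positive ends called and reached without SUIT2 THZ1 replicate 1. The causes were not tested, beyond the fewer libraries or the stricter threshold itself.

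The replicate block moved 1 of 90 single-gene values across the threshold, KRT6A in BxPC3 over Panc327 (0.35, edgeR adjusted p = 0.0717). The numbers do not pair the libraries: 4 of 9 THZ1 libraries correlated best with the DMSO library of their own number. The KRT8/KRT18 ratio and, in BxPC3 and Panc327, the KRT7/KRT19 ratio kept their direction under each alternative run. With 3 counts or fewer a group, changes of KRT14 in SUIT2 and of KRT81 in BxPC3 were not detectable at this depth.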
